A study of Saccharomyces cerevisiae with 12 samples.

Results

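The mitochondrial genome of budding yeast was examined in maps of protein-linked DNA ends, cut from position 1 into tiles of 100 bp on which the hits of each strand were counted. It gave 858 tiles, named mt1 to mt858 here, out of 121123 tiles over every molecule of the 12 maps. The tiles covered all 85779 bp of the reference, the last tile holding 79 bp, and none of them was without hits in all libraries. The maps were made by CC-seq, in which DNA that stays covalently bound to a protein is retained on silica after denaturing extraction, and the 5′ terminal nucleotide that carried the protein is read by sequencing. One such read is called a hit, and it belongs to the Watson strand (the reference strand) or to the Crick strand. Vegetative BY4741 cells of 3 genotypes were grown in rich medium. All carry the pdr1DBD-CYC8 drug sensitivity cassette (called pdr1), alone or with SAE2 deleted (pdr1sae2) or MRE11 deleted (pdr1mre11). Each was kept at 30 °C for 4 h with 1 mM VP16 (etoposide) or with 2% DMSO, the untreated condition (UT), and each of these 6 groups has 2 biological replicates. Because the controls carry the cassette as well, nothing here compares cells with and without it.

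Yeast mitochondrial DNA is a small, very AT-rich genome present in many copies, in which a few respiratory chain, ATP synthase, rRNA, tRNA and RNase P RNA genes are separated by long AT-rich spacers dotted with short GC-rich clusters. Topoisomerase 2 (Top2) passes one duplex through a transient double-strand break, during which a tyrosine of each subunit is joined to a 5′ DNA end. VP16 holds the enzyme in that state, the pdr1 cassette represses the pumps that export such drugs, and Mre11 with its cofactor Sae2 takes part in removing trapped Top2 from DNA ends. The paired cuts of Top2 leave a short 5′ overhang, so that the Crick hit of a double-strand break lies 3 bp to the right of its Watson hit, and VP16 is known to favour cuts with a cytosine just 5′ of the cleaved bond.

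The sequences at the sites and tiles on which the results turn are given from the RefSeq R64 assembly, 5′ to 3′ on the strand of the hit. The first group holds the strongest single positions, with the base 5′ of the cleaved bond and the 5′ terminal base of the hit in capitals. None of the 7 has a cytosine before the bond. Cytosine is 8.55% of the mitochondrial reference, so 7 positions are too few to show that it is avoided.
Watson 14384, chrM:14364-14404, COX1: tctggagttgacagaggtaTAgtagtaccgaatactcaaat
Crick 16464, chrM:16444-16484, COX1: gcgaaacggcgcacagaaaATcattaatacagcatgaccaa
Crick 26498, chrM:26478-26518, COX1: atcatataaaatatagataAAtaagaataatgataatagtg
Watson 56560, chrM:56540-56580, beside ORI4: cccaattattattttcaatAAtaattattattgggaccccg
Crick 59413, chrM:59393-59433, 21S_RRNA: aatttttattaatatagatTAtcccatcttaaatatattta
Watson 59944, chrM:59924-59964, 21S_RRNA: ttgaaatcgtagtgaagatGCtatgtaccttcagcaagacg
Crick 75691, chrM:75671-75711, Q0255: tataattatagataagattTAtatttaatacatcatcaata

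The next group holds the 3 strongest sites hit on both strands with the 3 bp offset, written on the Watson strand with the 4 bases between the paired cuts in capitals.
pair 59944, chrM:59924-59967, 21S_RRNA: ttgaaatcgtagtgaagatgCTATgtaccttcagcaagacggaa
pair 14384, chrM:14364-14407, COX1: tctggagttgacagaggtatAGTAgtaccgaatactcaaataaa
pair 28832, chrM:28812-28855, ATP6: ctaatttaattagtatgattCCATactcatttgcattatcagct

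The last group holds whole tiles on the Watson strand with G and C in capitals. The 2 most hit tiles of COX1 and the most hit tile of COX3 are set against mt112 and mt114, a pair of tiles 100 bp apart that were hit on opposite strands.
mt166, chrM:16501-16600: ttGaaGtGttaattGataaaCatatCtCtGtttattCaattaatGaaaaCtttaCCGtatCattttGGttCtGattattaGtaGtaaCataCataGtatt
mt165, chrM:16401-16500: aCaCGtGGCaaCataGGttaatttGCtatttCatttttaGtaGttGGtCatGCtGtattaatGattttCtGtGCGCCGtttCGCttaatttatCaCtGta
mt797, chrM:79601-79700: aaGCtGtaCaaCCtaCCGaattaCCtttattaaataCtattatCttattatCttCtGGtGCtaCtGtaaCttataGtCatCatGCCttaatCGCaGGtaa
mt112, chrM:11101-11200: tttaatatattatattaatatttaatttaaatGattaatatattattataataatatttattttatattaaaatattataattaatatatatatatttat
mt114, chrM:11301-11400: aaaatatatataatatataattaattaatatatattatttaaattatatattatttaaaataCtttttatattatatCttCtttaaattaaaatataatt

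Libraries held between 751850 and 3646842 hits in all, of which 4369 to 51418 lay on mitochondrial DNA under VP16, against 56664 to 117380 in UT. Shallow libraries therefore limit every value below: the median tile held 4 hits in the library of pdr1mre11 cells with VP16, replicate 1, and 91 in that of untreated pdr1mre11 cells, replicate 1. Since 3 hits is the floor used here for a count of 0, a tile at 0 in those pdr1mre11 VP16 libraries may still hold up to 0.0687% (replicate 1) or 0.0382% (replicate 2) of the mitochondrial hits. These limits cover counting error only, because the protocol describes no molecular identifiers. The replicate 1 libraries of untreated cells stood apart. They had 377 (pdr1), 417 (pdr1sae2) and 556 (pdr1mre11) strand positions with 10 or more mitochondrial hits, whereas their replicate 2 libraries had 0, 0 and 2 and no VP16 library had more than 2. Tile by tile, Pearson's r between untreated libraries of the same number and different strains was 0.860 to 0.989 over 6 pairs, against 0.703 to 0.870 between the 2 replicates of an untreated group. Several of the results that rest on the untreated groups, but not all, are therefore also given by replicate.

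Mitochondrial DNA took a smaller part of the hits with VP16 than without it. In pdr1 cells the share was 0.549% and 3.04% with VP16, against 3.80% and 7.54% in UT. In pdr1sae2 cells it was 0.543% and 1.49% with VP16, against 4.01% and 6.31% in UT. In pdr1mre11 cells it was 0.173% and 0.261% with VP16, against 3.22% and 5.99% in UT. The groups did not overlap within any strain, and the second replicate was the higher of the 2 in all 6 groups. The group means were 1.80% ± 1.76, 1.02% ± 0.669 and 0.217% ± 0.0623 with VP16 for pdr1, pdr1sae2 and pdr1mre11, and 5.67% ± 2.64, 5.16% ± 1.62 and 4.61% ± 1.96 in UT in the same order of strains (SD, n = 2 each). The mean difference over the 3 strains was -4.13 percentage points (within-group SD 1.69), lower with VP16 in 6 of 6 same-numbered comparisons. An exact two-sided permutation of the treatment labels within strains gave p = 0.00926, the smallest value that its 216 arrangements allow, and 0.0556 after Benjamini-Hochberg adjustment over the 12 measures tested in this way, which misses 0.05. By replicate the difference was -3.25 points in the first and -5.01 points in the second. With each position counted once it was -2.53 points (exact permutation p = 0.0278, adjusted 0.167). In a single strain an exact permutation of 2 libraries against 2 cannot give a p below 0.333, so this test was not run by strain.

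**Figure D1:**
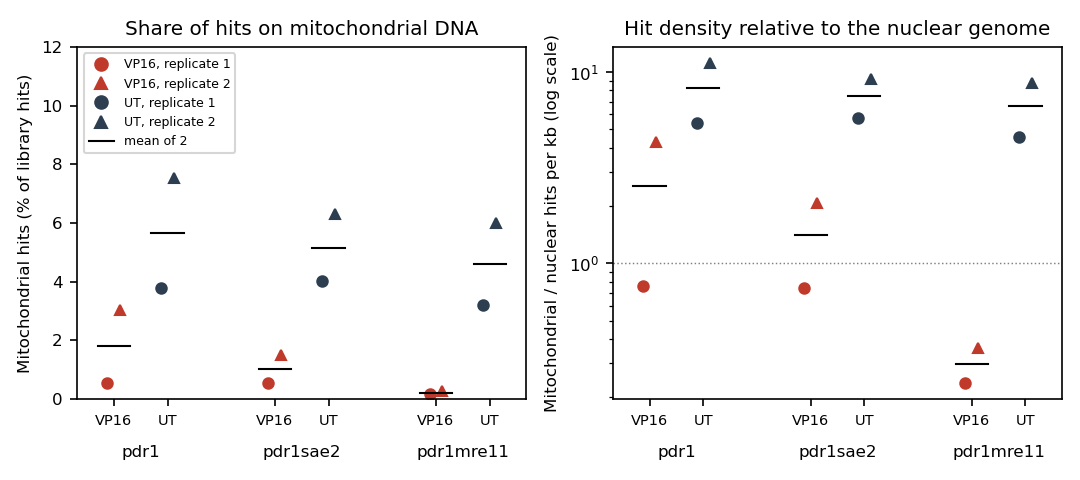
Share of library hits that lay on mitochondrial DNA (left, percent) and mitochondrial hits per kb over nuclear hits per kb (right, log scale), for each library of the 3 strains with VP16 and UT. Points are libraries, bars are means of 2, and the dotted line marks equal density. With VP16 the pdr1mre11 libraries lie at 0.173% and 0.261%, the lowest of all 12.

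Per kilobase, untreated mitochondrial DNA held more hits than the nuclear chromosomes. Against nuclear density, mitochondrial density was 2.52 with VP16 and 8.28 in UT in pdr1 cells (means of 2 ratios). It was 1.41 with VP16 and 7.46 in UT in pdr1sae2 cells, and 0.298 with VP16 and 6.65 in UT in pdr1mre11 cells. The share falls when nuclear hits increase as well as when mitochondrial hits decrease, so it does not say which of the 2 moved. The authors deposited a calibration factor from a human DNA spike-in, 1 value for both replicates of a group, and the share multiplied by it was set side by side. Calibrated in this way, the mitochondrial signal averaged 3.93 with VP16 and 7.72 in UT in pdr1 cells, 3.69 with VP16 and 7.86 in UT in pdr1sae2 cells, and 1.67 with VP16 and 7.80 in UT in pdr1mre11 cells (percent of hits times the factor). The ratios VP16 over UT were 0.509, 0.469 and 0.214 in these strains, whereas the nuclear signal calibrated alike gave 1.67, 2.49 and 4.75. By replicate the mitochondrial ratios were 0.232 and 0.648 (pdr1), 0.323 and 0.563 (pdr1sae2) and 0.244 and 0.198 (pdr1mre11), all below 1. As the factor is shared by replicates these are values without a test. The amount of mitochondrial DNA in the cells was not measured, and fewer copies cannot be told apart from fewer ends per copy. Whether every mitochondrial hit came from a protein-linked end was not tested either.

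On mitochondrial DNA the base 5′ of the cleaved bond differed with VP16 by less than the spread between replicates. Cytosine stood there in 12% and 11.2% of mitochondrial hits of pdr1 cells with VP16, against 13.1% and 9.67% in UT. It stood there in 10.8% and 11.3% with VP16 and 12.8% and 10.9% in UT in pdr1sae2 cells, and in 11.6% and 12.5% with VP16 and 13.1% and 11.2% in UT in pdr1mre11 cells. Treated and untreated libraries overlapped in each strain, and all lay a little above the cytosine content of the mitochondrial reference, 8.55%. A baseline from the sequence around the hits was not used. At the base 5 positions 5′ of the terminal base, mitochondrial hits averaged 12.6% cytosine and 15.1% guanine with VP16. The values there in UT were 13.8% and 16.4%. The difference was -0.20 points (within-group SD 1.31, exact permutation p = 0.75, adjusted 0.981). It was -1.50 points in the first and 1.10 points in the second replicates, and 0.83 points with each position counted once (exact permutation p = 0.0463, adjusted 0.185). On nuclear DNA of the same libraries cytosine preceded 46.4% to 65.6% of the bonds with VP16 and 21.6% to 23.0% in UT, where composition gives 19.1%. With each genome's composition subtracted, the mitochondrial value less the nuclear one was -36.7 points with VP16 and -0.0343 points in UT on average, lower with VP16 in 6 of 6 comparisons (difference -36.7, within-group SD 5.56, exact permutation p = 0.00926, again the smallest allowed, adjusted 0.0556). With each position counted once the difference was -24.1 points (exact permutation p = 0.00926, adjusted 0.111). With VP16 the contrast also appeared among the top-ranked positions, whereas in UT it ran the other way there. Among the 100 strand positions with the highest mean share, cytosine preceded 12 mitochondrial and 93 nuclear positions with VP16. In UT it preceded 22 mitochondrial and 6 nuclear positions, and guanine preceded 67 of the 100 nuclear positions. The mitochondrial sets hold few strong positions. With VP16, 12 of 100 lay within the 10.8% to 12.5% of all mitochondrial hits, and 78.5% to 96.5% of hit positions held 1 hit. In UT, positions with 10 or more hits were nearly all in replicate 1 (377, 417 and 556 for pdr1, pdr1sae2 and pdr1mre11, against 0, 0 and 2 in replicate 2).

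**Figure D2:**
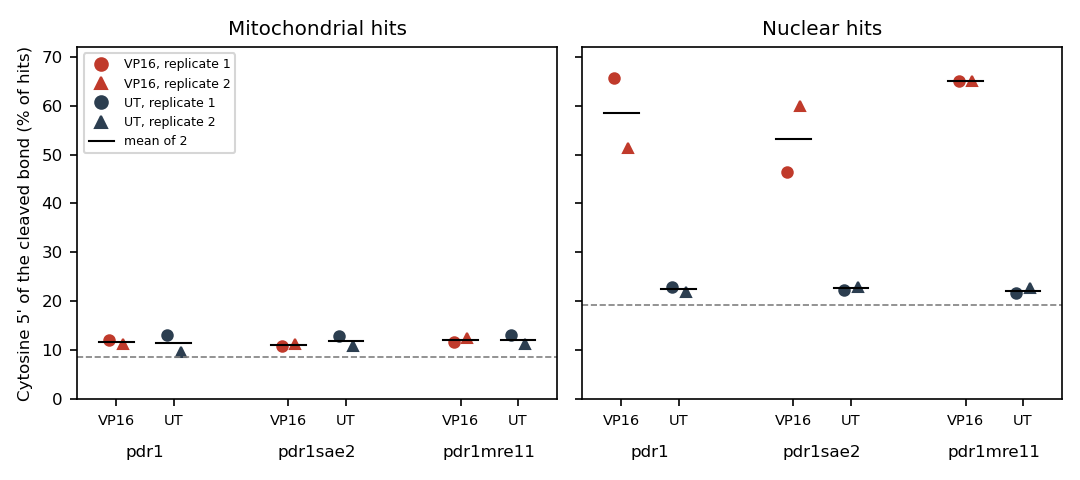
Percent of hits with cytosine at the base 5′ of the cleaved bond, for mitochondrial hits (left) and nuclear hits (right) of each library. Points are libraries, bars are means of 2, and the dashed line is the cytosine content of that genome. The mitochondrial libraries lie between 9.67% and 13.1% with either treatment, whereas nuclear VP16 libraries lie between 46.4% and 65.6%.

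At the Top2 offset, Watson and Crick hits went together less on mitochondrial than on nuclear DNA in all 12 libraries. Over sites hit on both strands with Crick at Watson + 3, Pearson's r between the strands was -0.0511 to 0.411 in the VP16 libraries and -0.0184 to 0.183 in the UT libraries of mitochondrial DNA. On nuclear DNA it was 0.409 to 0.645 with VP16 and 0.479 to 0.701 in UT. The one mitochondrial library above 0.2 was that of pdr1 cells with VP16, replicate 1 (r = 0.411 over 456 sites), whose replicate 2 had r = 0.00374 over 5562 sites. Leaving out the strongest site, pair 59944, gave r = 0.379 in the first of these, and 0.0944 in place of 0.183 in untreated pdr1mre11 cells, replicate 1. These are correlations across sites within a library, which are not independent replicates. The mitochondrial r differed by 0.01 between VP16 and UT (exact permutation p = 0.917, adjusted 0.981), and mitochondrial r less nuclear r was -0.43 with VP16 and -0.52 in UT (difference 0.09, exact permutation p = 0.111, adjusted 0.267). By replicate the mitochondrial r differed by -0.0113 in the first and 0.0405 in the second. Mitochondrial r less nuclear r differed by 0.123 in the first and 0.0502 in the second. The hits at sites paired at 3 bp, relative to the mean over all other offsets within 100 bp, were 0.956 to 1.28 times on mitochondrial DNA with VP16 and 0.973 to 0.992 times in UT. The pdr1mre11 libraries with VP16 were the highest at 1.28 and 1.15, against 0.973 and 0.992 in UT, while the VP16 libraries of the other strains had 0.956 to 1.06 (difference over strains 0.0876, exact permutation p = 0.0926, adjusted 0.267). Their ratios rest on only 88 sites (188 hits) and 302 sites (655 hits), against 13049 and 8012 sites in UT. Ratios at another offset, -10 bp, were 1.08 and 0.952 in these VP16 libraries and 1.21 in pdr1 cells with VP16, replicate 1. Counting error may thus account for values of this size. On nuclear DNA the same ratio was 3.98 to 7.42 with VP16 and 1.40 to 2.38 in UT. In the 3 untreated replicate 1 libraries the highest mitochondrial r at any offset was at -10 bp (0.211, 0.226 and 0.199 for pdr1, pdr1sae2 and pdr1mre11), against 0.00438, 0.0135 and 0.0176 in their replicate 2 libraries.

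Hits were spread over the whole mitochondrial genome, 697 of 858 tiles being hit in every library, but density followed the kind of sequence. Density is given here as hits per base relative to the mean of that library's mitochondrial DNA. The exons of respiratory chain and ATP synthase genes had 1.58 to 2.53 with VP16 and 1.34 to 2.70 in UT. Introns had 1.56 to 1.96 with VP16 and 1.39 to 1.91 in UT, and rRNA exons 1.36 to 1.58 with VP16 and 1.28 to 1.58 in UT. Below the mean in all 12 libraries lay intergenic DNA (0.481 to 0.805), replication origins (0.388 to 0.866), tRNA genes (0.438 to 0.721), the RNase P RNA gene RPM1 (0.406 to 0.678) and VAR1, the one ribosomal protein gene (0.173 to 0.501). ORI6, annotated over 2701 bp, holds most of the 4500 origin bases, so values for the origin class rest mainly on that stretch. The log2 ratio of intergenic to genic density was -1.32 with VP16 and -1.43 in UT on average (difference 0.11, within-group SD 0.46, exact permutation p = 0.676, adjusted 0.981). By replicate the difference was 0.66 in the first and -0.45 in the second, so its sign differed between the replicates.

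**Figure D3:**
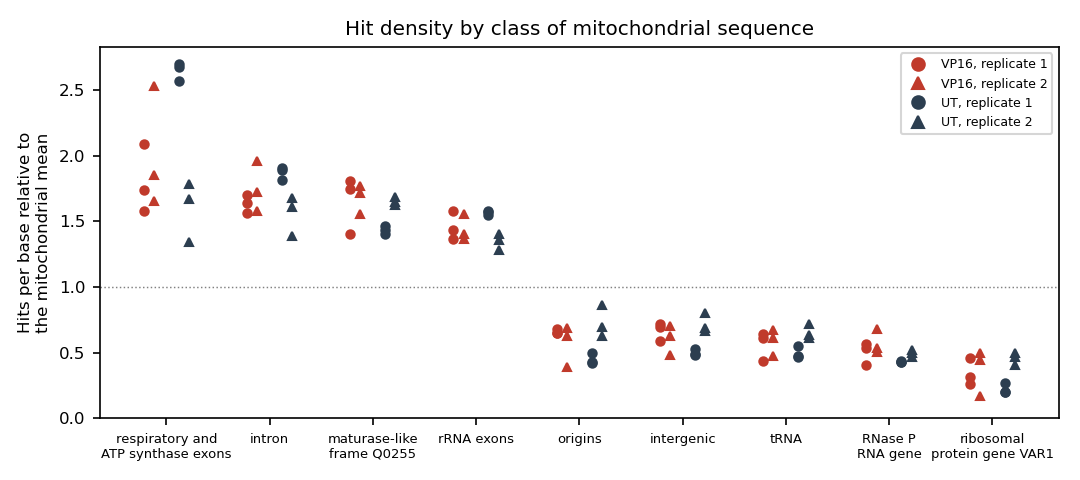
Mitochondrial hits per base, relative to the mean of each library's mitochondrial DNA (dotted line), by class of sequence. Each point is a library. Exons, introns, the maturase-like frame Q0255 and rRNA lie above 1 in all 12 libraries, and origins, intergenic DNA, tRNA genes, the RNase P RNA gene and VAR1 lie below 1 in all 12.

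Among single genes, COX3, a core subunit of cytochrome c oxidase at 79213 to 80022 on the Watson strand, had the highest mean density over the 12 libraries, although COX2, another oxidase subunit, exceeded it in 5 of them. Its density was 2.13 and 1.88 in pdr1, 1.74 and 2.10 in pdr1sae2 and 2.16 and 3.33 in pdr1mre11 cells with VP16. In UT it was 3.64 and 1.59 in pdr1, 3.71 and 1.86 in pdr1sae2 and 3.70 and 1.91 in pdr1mre11 cells. The 3 untreated replicate 1 libraries were the highest, and treated and untreated values overlapped. COX2 had 1.54 to 3.16 over the 12 libraries, ATP6, a subunit of the ATP synthase membrane sector, 1.45 to 2.68, and the exons of COB, which encodes cytochrome b, 1.36 to 2.49. COX1, the catalytic oxidase subunit, had 1.24 to 2.78 in its exons and 1.37 to 2.18 in its introns, which encode maturases and endonucleases. OLI1, subunit c of the ATP synthase, stood lower at 0.787 to 1.87. ATP8, another membrane subunit of the synthase, went against its class with 0 to 0.371, its largest count in a library being 36 hits. At VAR1, of 10.4% GC, the hits numbered 54, 359, 38, 224, 16 and 19 with VP16 and 392, 396, 307, 429, 333 and 375 in UT, in the order pdr1, pdr1sae2, pdr1mre11 with the 2 replicates of each together. That is a density of 0.173 to 0.500 with VP16 and 0.200 to 0.501 in UT. Of the 8 origins, ORI1, ORI4 and ORI5 reached or passed the mitochondrial mean in at least 1 library each (0.668 to 1.53, 0.681 to 1.45 and 0.241 to 1.80), and the other 5 stayed below it in all 12.

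Density went with GC content across tiles, though not across every class of sequence. The tRNA genes, of 31.9% GC, lay below the mean density, and introns, of 20.3% GC, lay above it. Tiles under 5% GC, 151 in number, had a density of 0.309 to 0.605 with VP16 and 0.311 to 0.690 in UT. Tiles of 20% to 30% GC, 200 in number, had 1.30 to 1.58 with VP16 and 1.24 to 1.63 in UT, and the 146 tiles at or above 30% had 1.15 to 1.45 with VP16 and 1.12 to 1.50 in UT. Across tiles, Spearman's rho between hits and GC was 0.338 to 0.564 by library, and with the GC content of the surrounding 500 bp it was 0.684 to 0.821. Neighbouring tiles share sequence and depth, so these are descriptions. Tiles in the top quartile of GC exceeded the rest in density by a log2 ratio of 0.61 with VP16 and 0.69 in UT (difference -0.09, exact permutation p = 0.537, adjusted 0.981), and by replicate the difference was -0.37 in the first and 0.19 in the second. The 4 most hit tiles of COX1, mt165 to mt168 in the region of intron-encoded AI2, and mt797 in COX3 had 24% to 49% GC and took 0.339% to 0.380% of mitochondrial hits each, averaged over libraries. At mt166 the hits were 40 and 127 in pdr1, 18 and 104 in pdr1sae2 and 19 and 43 in pdr1mre11 cells with VP16. In UT they were 591 and 85 in pdr1, 663 and 142 in pdr1sae2 and 761 and 156 in pdr1mre11 cells. As shares of mitochondrial hits these were 0.247% to 0.547% with VP16 and 0.150% to 0.648% in UT, and the treatments overlapped. The Gini coefficient of hits over tiles, thinned to 4369 hits per library, was 0.448 with VP16 and 0.464 in UT (exact permutation p = 0.694, adjusted 0.981), and by replicate the difference was -0.0976 in the first and 0.0658 in the second. At the other end mt132, mt133, mt487 and mt519, spacer tiles of 1% to 9% GC, had 0 to 2 hits in a VP16 library and 0 to 3 in a UT library.

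Whether VP16 moved single tiles relative to the rest of their genome was tested with edgeR's quasi-likelihood test on hits per tile, fitted over nuclear and mitochondrial tiles together. Of 834 mitochondrial tiles that passed the filter on low counts, 7 passed an adjusted p of 0.05, 5 higher and 2 lower with VP16. That is 0.839%, against 52.9% of nuclear tiles and 52.5% of all tiles tested (16.1% higher and 36.4% lower). At an unadjusted p of 0.05 the mitochondrial number was 17. The median log2 change was 0.05 over mitochondrial tiles and -0.36 over nuclear tiles, and the median size of the change was 0.15 and 0.66. With TMM factors the nuclear median was -0.07, all tiles split into 27192 higher and 26067 lower in place of 18706 and 42331, and the mitochondrial calls into 2 higher and 3 lower. No mitochondrial tile was called when these tiles were fitted on their own, and none by DESeq2. Leaving out one library gave 2 to 30 mitochondrial calls: 30 without untreated pdr1, replicate 2, 25 without untreated pdr1sae2, replicate 2, 12 without replicate 2 of pdr1mre11 with VP16 or UT, 3 without replicate 1 of pdr1mre11 with VP16 or UT, and 2 without replicate 1 of untreated pdr1 or pdr1sae2.

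One called tile moved the same way in all 6 same-numbered comparisons. This was mt556, a spacer tile at 55501 to 55600 of 33% GC. It had 4 and 44 hits in pdr1, 6 and 25 in pdr1sae2 and 1 and 2 in pdr1mre11 cells with VP16, and 133 and 51 in pdr1, 135 and 78 in pdr1sae2 and 88 and 63 in pdr1mre11 cells in UT. As shares of mitochondrial hits these were 0.0326%, 0.0856%, 0.101%, 0.0686%, 0.0229% and 0.0254% with VP16, against 0.127%, 0.0900%, 0.123%, 0.118%, 0.0750% and 0.0948% in UT. Within each strain both VP16 shares lay below both UT shares, while across strains the ranges overlapped. Its log2 change was -0.80 (SE 0.27, adjusted p = 0.00952, edgeR), and with mitochondrial tiles alone its adjusted p was 0.999. The other 6 called tiles had mixed directions over the pairs, for example mt643 at 64201 to 64300 of 4% GC, which had a log2 change of 0.88 (SE 0.31, edgeR adjusted p = 0.0132) but was higher with VP16 in 4 pairs and lower in 2. In pdr1 and pdr1sae2 cells taken singly no mitochondrial tile passed, against 13.4% and 7.61% of all tiles, with 3 and 9 tiles at an unadjusted p of 0.05. In pdr1mre11 cells 7 passed, all lower with VP16, against 30.6% of all tiles that passed and 20.2% that were lower. Among these mt325, at 32401 to 32500 in the origin ORI2, had 0 hits in both pdr1mre11 VP16 libraries, against 38 and 28 in UT. Both untreated shares, 0.0324% and 0.0421%, lie below the 0.0687% that a count of 0 allows in VP16 replicate 1, and the first also lies below the 0.0382% it allows in replicate 2. Another, mt279 at 27801 to 27900, had 0 hits in the same VP16 libraries, against 38 and 18 in UT (0.0324% and 0.0271%, below both limits). Mitochondrial tiles fitted alone gave no call here either.

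Few tiles passed between strains. With VP16, 0 mitochondrial tiles passed between pdr1sae2 and pdr1 and 0 between pdr1mre11 and pdr1, against 0.00516% and 0.0129% of all tiles, with 15 and 63 mitochondrial tiles at an unadjusted p of 0.05. Without it 0 passed for pdr1sae2 and 1 for pdr1mre11, against 0.00172% and 0.0163% of all tiles, with 38 and 65 at an unadjusted p of 0.05. Untreated libraries of the same number went together across strains (above), and with a replicate block 1 and 4 passed, all lower in the mutant. The tile called without the block was mt329, a spacer tile at 32801 to 32900 of 6% GC. It had 0 and 1 hits in untreated pdr1mre11 cells and 27 and 25 in untreated pdr1 cells, and the groups did not overlap (log2 change -5.44, SE 0.92, edgeR adjusted p = 0.00231). The maps hold hits only, and neither the sequence nor the copy number of this stretch in each strain was read. With VP16 it had 0 and 0 hits in pdr1mre11, 0 and 5 in pdr1sae2 and 0 and 10 in pdr1 cells. Untreated pdr1sae2 cells had 0 and 6. The call held in 14 of 17 settings, ended without replicate 1 of untreated pdr1mre11 and without replicate 2 of untreated pdr1, and ended with mitochondrial tiles alone (adjusted p = 0.998). The response to VP16 differed between strains at 0 tiles for either mutant, with 4 (pdr1sae2) and 19 (pdr1mre11) at an unadjusted p of 0.05, and at 0 of all tiles tested.

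The 2 strands were hit equally in sum and very unequally in place. Watson hits made up 48.7% to 50.5% of mitochondrial hits with VP16 and 49.4% to 50.5% in UT (difference -0.0116 points, exact permutation p = 0.981, adjusted 0.981). In tiles the picture was another one. An edgeR test of Watson against Crick hits per tile over the 12 libraries, added after the data had been seen, called 548 of 834 mitochondrial tiles (65.7%), 275 with more Watson and 273 with more Crick hits. The background was 9.65% of all tiles tested. Untreated libraries held 661 to 1368 hits per kb on mitochondrial and 59.4 to 300 on nuclear DNA, so these percentages come from unlike depths. Over mitochondrial tiles the log2 ratio of the strands had a median size of 1.20, exceeded 1 in 453 tiles and exceeded 2 in 322. Over nuclear tiles its median size was 0.280. In 274 of the 548 tiles every library had the excess on the same strand, the deeper untreated libraries holding it in 509 to 546 of the called tiles and the VP16 libraries in 414 to 531. Tiles of like sign formed 275 runs with a median length of 2 tiles and a longest of 5. Called tiles were 77.3% of intergenic, 77.3% of origin and 88.9% of tRNA tiles, and 39.7% of intron, 43.6% of respiratory exon and 63.3% of rRNA tiles. Leaving out one library gave 503 to 559 called tiles.

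The extremes were tiles with almost a single strand. At mt366, which holds the start of COB at 36501 to 36600, there were 887 Watson and 3 Crick hits over the 12 libraries. All 6 VP16 libraries (6 and 61 hits in pdr1, 5 and 34 in pdr1sae2, 4 and 15 in pdr1mre11) were Watson only. At mt112 there were 0 Watson and 426 Crick hits, and at mt114, with a single tile between them, 217 Watson hits and 1 Crick hit. The tile between, mt113, had 26 Watson and 82 Crick hits. The order of Crick to the left and Watson to the right recurred at mt688 (1 Watson and 494 Crick hits) and mt690 (347 Watson and 2 Crick hits), with mt689 of 117 Watson and 34 Crick hits between them. The tiles at both ends of the linear reference belonged to the same kind. The first, mt1, had 328 Watson and 0 Crick hits, and the last, mt858, 0 Watson and 419 Crick hits. No read pair can cross these ends in a linear reference, although the molecule's map is circular. VP16 changed the strand share of 3 tiles (edgeR, interaction of strand and treatment), 0.360% against 5.41% of all tiles, and of 0 when mitochondrial tiles were fitted alone. Of the 3, 1 had a higher and 2 a lower Watson share with VP16, whereas the 3 called with a replicate block were all higher. Over tiles, the median distance of the Watson percent from 50 at equal depth was 28.6 points with VP16 and 29.0 points in UT (exact permutation p = 0.852, adjusted 0.981), and by replicate the difference was -3.68 points in the first and 2.82 points in the second.

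**Figure D4:**
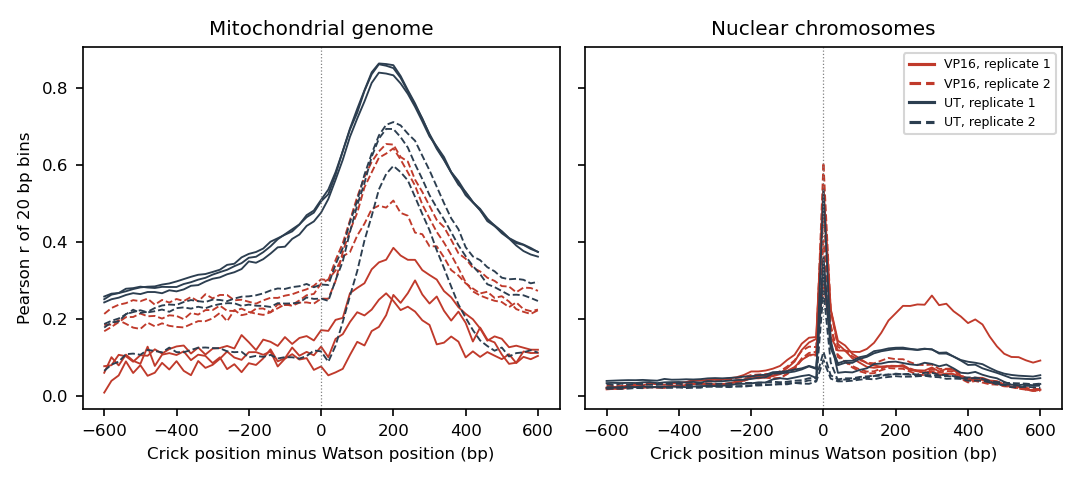
Pearson's r between Watson and Crick hits in 20 bp bins (vertical axis) against the distance of the Crick bin to the right of the Watson bin (horizontal axis, bp), for mitochondrial DNA (left) and nuclear chromosomes (right). Each line is a library, solid for replicate 1 and dashed for replicate 2. Mitochondrial lines peak between 160 and 260 bp, and nuclear lines at 0 bp.

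The strands were displaced in the same sense throughout. With hits in bins of 20 bp, r between Watson bins and Crick bins to their right was highest at 180 to 260 bp in the VP16 libraries (r = 0.267 to 0.655) and at 160 to 200 bp in the UT libraries (0.598 to 0.864). At 0 bp the mitochondrial r was 0.0769 to 0.303 with VP16 and 0.116 to 0.510 in UT. On nuclear DNA r was highest at 0 bp in all 12 libraries. Counted once per position, the nuclear maximum lay at 200 bp in replicate 1 of untreated pdr1 and pdr1sae2 cells. In pdr1sae2 cells with VP16, replicate 1, it lay at 300 bp. As a measure, the mean r with Crick 100 to 300 bp to the right was taken less the mean r with Crick as far to the left. It averaged 0.317 on mitochondrial and 0.0441 on nuclear DNA, a difference of 0.273 (SD 0.130 over 12 libraries), higher on mitochondrial DNA in 11 of 12. An exact sign-flip permutation test over libraries, one of 3 tests added after the data had been seen, gave p = 0.000977 (adjusted over these 3, 0.00146). In the library of pdr1sae2 cells with VP16, replicate 1, the mitochondrial measure was the lower (nuclear 0.152, mitochondrial 0.118). Its nuclear hits had a broad second maximum on the same side. The nuclear measure was above 0 in every library, at 0.0142 to 0.152. By replicate the difference was 0.229 (exact p = 0.0625) in the first, 5 of 6 libraries, and 0.317 (exact p = 0.03125, the smallest allowed) in the second, 6 of 6. At 4369 hits in each library the mitochondrial measure was 0.119 with VP16 and 0.136 in UT (difference -0.02, exact permutation p = 0.481, adjusted over these 3, 0.481). The replicates went opposite ways at this depth. In the first it was lower with VP16 in each strain (0.0936 to 0.136, against 0.164 to 0.182 in UT). In the second it was higher with VP16 in each strain (0.0962 to 0.176, against 0.0888 to 0.109 in UT).

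The same displacement was seen in the sequence around hits. In the 300 bp on the 3′ side of a hit, along its strand, GC content averaged 20.9% to 23.1% with VP16 and 20.1% to 23.1% in UT. In the 300 bp on the 5′ side it averaged 18.1% to 19.5% with VP16 and 17.6% to 19.6% in UT. The 3′ side exceeded the 5′ side by 3.12 ± 0.311 points in mitochondrial and 0.00969 ± 0.237 points in nuclear hits (SD, n = 12 each), a difference of 3.11 points in the same direction in 12 of 12 libraries. The exact sign-flip permutation p was 0.000488, the smallest allowed (adjusted over these 3 added tests, 0.00146). This p too measures only repeatability over libraries of the same 2 genomes. Mitochondrial GC was highest 40 to 119 bp downstream of the hit, at 23.1% to 25.6% with VP16 and 22.2% to 25.8% in UT. The 2 genomes are unlike in this respect. Windows of 300 bp had a GC content with an SD of 7.49 points on mitochondrial and 4.73 points on nuclear DNA, and its part in the difference was not tested.

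Seen from the tiles themselves, the 43 least hit tiles (mean GC 6.40%) were flanked by opposite strands. In the tiles to their left that were not themselves least hit (32 tiles), Watson hits made up 0% to 10.4% with VP16 and 2.38% to 7.21% in UT. In the 32 tiles to their right Watson hits made up 84.1% to 99.4% with VP16 and 86.4% to 95.4% in UT. Hits beside a poorly hit tile thus lay on the strand whose 3′ direction runs away from it, in every library. Beside the 43 most hit tiles (mean GC 29.3%) the order was the opposite and milder, with 55.5% to 65.7% Watson on the left and 31.0% to 44.4% on the right with VP16, and 52.6% to 66.1% on the left and 32.5% to 49.3% on the right in UT. The tiles were chosen by their hits, so these values are a description.

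**Figure D5:**
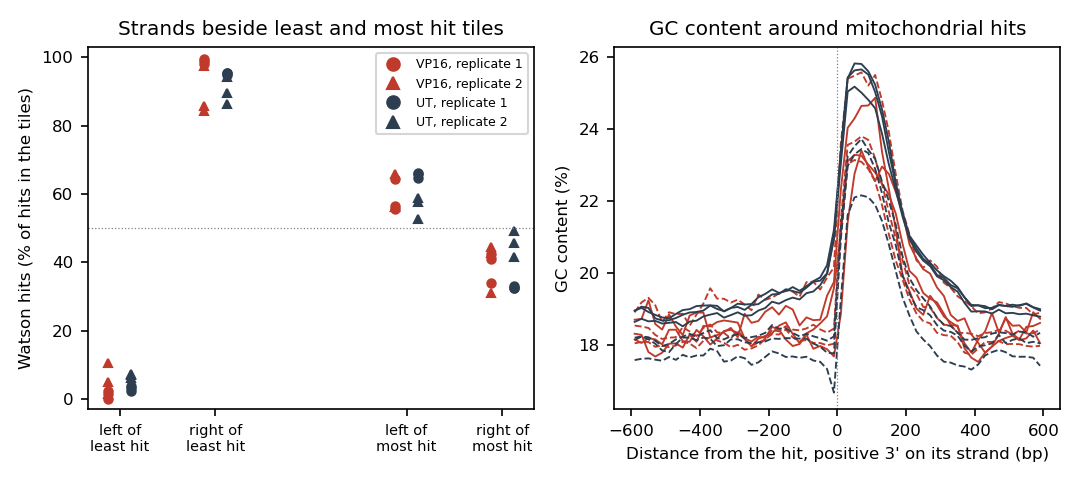
Left, Watson hits as a percent of hits in the tiles left and right of the 43 least hit and the 43 most hit mitochondrial tiles, each point a library. Right, GC content (percent) of the DNA around mitochondrial hits against distance from the hit in bp, positive towards 3′ on the strand of the hit, each line a library, solid for replicate 1 and dashed for replicate 2. Watson hits make up at most 10.4% left and at least 84.1% right of the least hit tiles, and GC peaks 40 to 119 bp downstream.

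Single positions were weak. Of the mitochondrial strand positions with a hit, 78.5% to 96.5% held exactly 1 hit in the VP16 libraries and 55.3% to 77.8% in the UT libraries, and no position held over 12 hits with VP16 or over 116 in UT. The 100 positions strongest in the other replicate of a group held 0.150% to 0.318% of mitochondrial hits with VP16 and 0.110% to 0.197% in UT (difference 0.0493 points, exact permutation p = 0.0648, adjusted 0.259). The strongest by mean share with VP16 was Watson 56560, 7 bp from the origin ORI4. It had 6 and 11 hits in pdr1, 6 and 12 in pdr1sae2 and 4 and 0 in pdr1mre11 cells with VP16, and 27 and 4 in pdr1, 40 and 2 in pdr1sae2 and 73 and 12 in pdr1mre11 cells in UT. No Crick hit lay at its 3 bp partner in any library, out of 197 Watson hits. Crick 16464 in COX1 had 267 hits, 66, 55 and 94 of them in the 3 untreated replicate 1 libraries, against 7 at its partner. Watson 59944 in the 21S rRNA gene was the strongest position with a partner. It had 7 and 2 hits in pdr1, 1 and 4 in pdr1sae2 and 0 and 3 in pdr1mre11 cells with VP16, and 51 and 1 in pdr1, 62 and 1 in pdr1sae2 and 116 and 1 in pdr1mre11 cells in UT. Its Crick partner at 59947 had 123 hits to its 249, of which 25, 23 and 59 were in the same 3 untreated replicate 1 libraries. Crick 75691 in the maturase-like frame Q0255 had 148 hits and 4 at its partner, and Crick 59413 entered the 5 strongest with VP16 on 9 hits in all. None of the named positions lay in a 40-base sequence that recurs in the reference.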

How the data were processed

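The maps hold counts of hits on each strand at each position. Per the labels and the methods, the authors sonicated and size-selected silica-bound DNA, released the 5′ ends with TDP2, aligned read pairs with Bowtie2 (version not given in the sources used here) to a modified Cer3 yeast build without a filter on mapping quality, recorded the terminal nucleotide as raw counts, and left out nuclear repeats and rDNA. Read pairs with more than one alignment are therefore placed at one copy, which bears on the 1884 mitochondrial bases in 40-base sequences that recur. The deposited calibration factors are a ratio from spiked human DNA. The highest mitochondrial position in the maps, 85779, equals the length in the RefSeq R64 reference, from which genes and sequences were taken. The authors' maps pooled over replicates were not used.

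Counts were summed in 100 bp tiles and tested with edgeR 4.0.16 in R 4.3.3 (quasi-likelihood test, filterByExpr, Benjamini-Hochberg over all nuclear and mitochondrial tiles), with log mitochondrial or log nuclear totals as offsets, so that a change is one within its genome. DESeq2 1.42.0 was an alternative. Library measures were compared by exact permutation within strains (216 arrangements, two-sided, adjusted over 12 measures) with Python 3.11.15, NumPy 2.4.6 and SciPy 1.17.1. Figures were drawn with Matplotlib 3.10.9. Thinning kept 4369 hits per library, averaged over 20 draws. Scripts were tested on simulated data. The labels call the replicates biological, and p-values measure the spread between these libraries. Depth was 4369 to 117380 mitochondrial hits per library, and the floor for a count of 0 is 3 counts. Tiles named are those called for VP16 over the 3 strains that moved alike in all 6 pairs and the 5 highest and lowest by mean share. One tile chosen in this way is not reported here. Positions named are the 5 strongest with VP16 and in UT, the strongest of each group, and the strongest 3 bp sites whose weaker strand held at least 25% of the hits. The tiles with unequal strands, the tiles beside them, the position bases and the other called tiles, single strains included, were chosen after their values were seen. The members, gene lists and tests were chosen with earlier results of these data known.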

Additional observations from a re-analysis of the deposited data

How the results depend on the processing

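The lower mitochondrial share with VP16 ranged from -4.76 to -3.51 points over the 12 fits without one library, and passed the adjusted threshold (0.037) without replicate 1 of pdr1sae2 or of pdr1mre11 with VP16 (-3.98 and -4.12 points). The cytosine contrast between genomes ranged from -38.9 to -34.5 points and passed without the same libraries (-38.9 and -36.6 points). With each position counted once these became -2.53 and -24.1 points (adjusted 0.167 and 0.111). The pair excess (0.0659 to 0.109) passed without the first of them (0.0938), and the share at the strongest positions (0.0213 to 0.0773 points) without the second (0.0773). On log2 hits, mitochondrial less nuclear r at 3 bp differed by 0.16 between VP16 and UT (exact permutation p adjusted 0.037). The 7 tiles called for VP16 became 0 with mitochondrial tiles alone, 0 with at least 10 hits in every library, 0 with DESeq2 and 1 with tiles of 200 bp (2 to 30 without one library). With library totals in place of mitochondrial totals 819 tiles were called, because that fit also holds the change in the mitochondrial share. In single strains, leaving out one library gave 0 to 9 tiles for pdr1 (9 without untreated replicate 2), 0 to 3 for pdr1sae2 and 1 to 7 for pdr1mre11, whose 7 became 4 with TMM factors and 0 with mitochondrial tiles alone. Untreated pdr1mre11 against pdr1 gave 0 with mitochondrial tiles alone, 5 with each position counted once and 0 to 9 without one library. The 3 tiles with a changed strand share became 0 with mitochondrial tiles alone or each position counted once, and 0 to 9 without one library. The 548 tiles with unequal strands were 596 with mitochondrial tiles alone, 502 with each position counted once and 503 to 559 without one library. Without the calibration factor the VP16 to UT ratios were 0.317 (pdr1), 0.197 (pdr1sae2) and 0.0471 (pdr1mre11), and with it, by single replicate, 0.232 to 0.648 (pdr1), 0.323 to 0.563 (pdr1sae2) and 0.198 to 0.244 (pdr1mre11). The strand displacement differed by -0.18 between VP16 and UT when libraries were not thinned, since shallow libraries give smaller correlations at these depths. The cause of the other changes was not tested.

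The pattern of hits over tiles could not settle whether the replicate numbers pair VP16 with UT libraries. The mitochondrial share was higher in the second replicate of all 6 groups. Between VP16 and UT, deviations from the group means correlated at 0.24 (pdr1), -0.11 (pdr1sae2) and -0.18 (pdr1mre11) across tiles. Those of untreated libraries correlated at 0.69 to 0.77 between strains, and those of VP16 libraries at -0.0154 to 0.262. Tiles of the VP16 libraries held few hits, so low values cannot show that pairing is absent. With a replicate block, 5 tiles were called for VP16, 9 in pdr1mre11 cells, 1 between untreated pdr1sae2 and pdr1, 4 between untreated pdr1mre11 and pdr1, 3 for strand share (all higher) and 576 for unequal strands. Treatment labels exchanged only within numbers gave p = 0.03125 for the mitochondrial share, the smallest that 64 exact permutations allow. The median tile held 4 to 13 hits in 4 of the 6 VP16 libraries, which limits what single tiles can show.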
